A study of Homo sapiens with 12 samples.

Results

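The ERBB family consists of the receptor tyrosine kinases EGFR, ERBB2, ERBB3 and ERBB4 and the growth factors that bind them. Of the 58174 genes counted in each library, 10 were taken by name: the 4 receptors, the ligands NRG1, HBEGF, EREG, AREG and TGFA, and ERRFI1, an inducible inhibitor of the receptors. RNA was sequenced from 2 established human lines of glioblastoma, LN229 and U251, 72 hours after reverse transfection without siRNA (mock), with the control siRNA siNT, or with the siRNA siXRN2 against XRN2. XRN2 is a nuclear 5′-to-3′ exoribonuclease that degrades the RNA left behind after cleavage at a poly(A) site. Each line and treatment gave 2 libraries, 12 in all. LN229 was grown in DMEM with 5% fetal bovine serum and U251 in EMEM with 10%, both with penicillin and streptomycin, so line and medium cannot be told apart. The labels do not say that the replicates came from different cultures, and p-values here therefore measure only the spread between these libraries, which may be technical.

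Ligand binding lets ERBB receptors dimerize and phosphorylate each other, which starts signalling through RAS and ERK, PI3K and AKT, and STAT proteins. EGFR binds TGFA, AREG, HBEGF and EREG, ERBB4 binds HBEGF, EREG and the neuregulins, ERBB3 binds neuregulins but has little kinase activity of its own, and ERBB2 has no known ligand and acts as the partner of the others. The ligands are made as membrane proteins and are released by metalloproteases, and ERRFI1 binds the kinase domains and holds them inactive. EGFR is known for its frequent amplification in glioblastoma.

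Between 4846768 and 7469052 reads per library fell in exons, and a count of 0 allows up to 3 reads, or 0.402 to 0.619 CPM (reads per 1000000 exon reads, which the values below also scale by TMM factors), for counting error only. XRN2 stood at 33.5 and 25.6 CPM in the siXRN2 libraries of LN229 against 202 to 243 CPM in its mock and siNT libraries, and at 31.1 and 26.2 CPM against 134 to 144 CPM in U251. The 10 glial and neural stem markers summed to 3321 to 6443 CPM in the LN229 libraries and 9812 to 18050 CPM in the U251 libraries. Among them GFAP lay at 1.41 to 4.32 CPM in the control libraries of LN229 and at 2351 to 6428 CPM in those of U251. Not all of them ran this way, and S100B lay at 294 to 569 CPM and at 14.9 to 22.0 CPM. SOX10, of the oligodendrocyte list, lay at 648 to 774 CPM in the LN229 controls and at 0 to 0.159 CPM in the U251 controls. Over all 12 libraries the 10 epithelial markers summed to 59.1 to 124 CPM in LN229 and 20.1 to 31.6 CPM in U251, mostly KRT18 and KRT8, with EPCAM at no more than 0.323 CPM in any control library. The 7 blood cell markers summed to 1.58 to 10.1 CPM in LN229 and 48.0 to 70.1 CPM in U251, the latter mostly CD68, and AIF1 and HBB had no read in either line. Of the other lists, 5 endothelial markers summed to 3.23 to 21.5 CPM over both lines, 5 neuronal markers to 16.7 to 143 CPM, and 5 oligodendrocyte markers to 860 to 1287 CPM in LN229 (SOX10 among them) and 21.4 to 24.5 CPM in U251. In LN229 siNT replicate 1, 5.58% of gene reads lay in introns, against 8.76% to 9.54% in the other LN229 libraries. Replicates stood farthest apart in U251 mock and LN229 siNT, and the values of U251 mock replicate 2 and LN229 siNT replicate 1 are given beside the results they touch. In bulk RNA, fewer cells with a transcript and less of it in each cell cannot be told apart.

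The rank order of the family differed between the lines. Per kilobase of exon, a scale that allows genes to be compared, ERBB3 led in the control libraries of LN229 with a median of 55.6 CPM per kb (46.3 to 62.9, 4 libraries). TGFA followed with 33.1 CPM per kb, ERRFI1 with 13.1, and ERBB2 with 9.03 beside EGFR with 8.45. These 3 steps from ERBB3 to ERBB2 showed no overlap between neighbours, while ERBB2 and EGFR overlapped. NRG1 at 1.99 and HBEGF at 1.88 CPM per kb overlapped each other, and EREG at 0.116 and ERBB4 at 0.0756 did too. In U251 ERRFI1 came first with 35.7 CPM per kb, EGFR next with 19.6 and TGFA after it with 15.5, each wholly above the next. ERBB2 with 7.43, HBEGF with 4.40 and NRG1 with 3.32 CPM per kb overlapped their neighbours, and ERBB3 with 0.0611, EREG with 0.0293, ERBB4 and AREG were at or near 0.

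**Figure D1:**
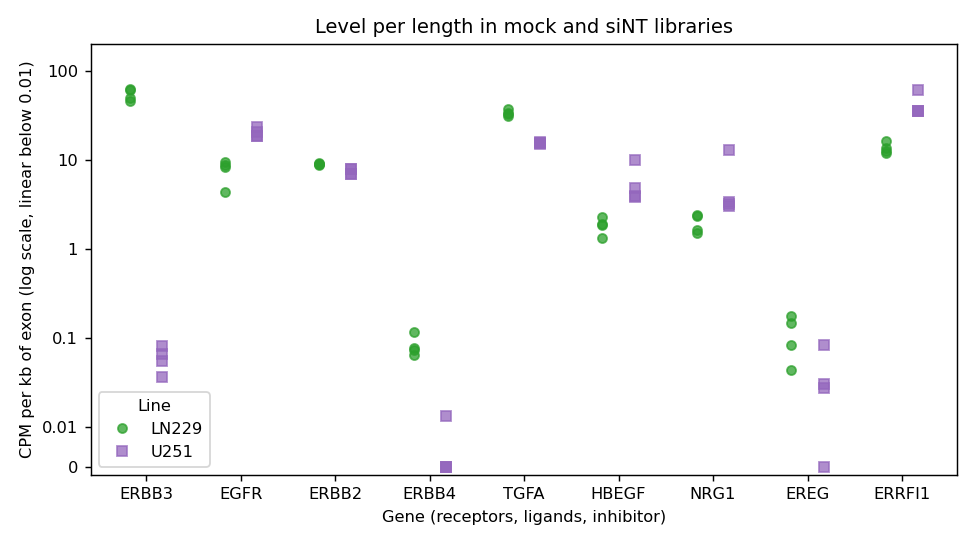
Level per kilobase of exon (log axis, linear below 0.01) of 9 genes in the 4 mock and siNT libraries of LN229 (circles) and of U251 (squares), 1 point per library. ERBB3 heads the LN229 libraries at 46.3 to 62.9 CPM per kb and lies at 0.0368 to 0.0814 CPM per kb in U251, where ERRFI1 and EGFR are highest.

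Across the mock and siNT libraries, 7 of the 8 members that could be tested differed between the lines at an adjusted p under 0.05 (edgeR quasi-likelihood test), 3 higher and 4 lower in LN229. The background is high: 67% of the 14232 genes tested passed in this comparison, so the count says little about the family. ERBB3, TGFA and ERBB2 were higher in LN229, and EGFR, NRG1, HBEGF and ERRFI1 were higher in U251. ERBB4 and AREG did not pass the filter on low counts, ERBB3 passed it only through its LN229 libraries and EREG only through the siXRN2 libraries of LN229. The median log2 fold change of the 8 members was -0.55, beside 0.03 over all genes.

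**Figure D2:**
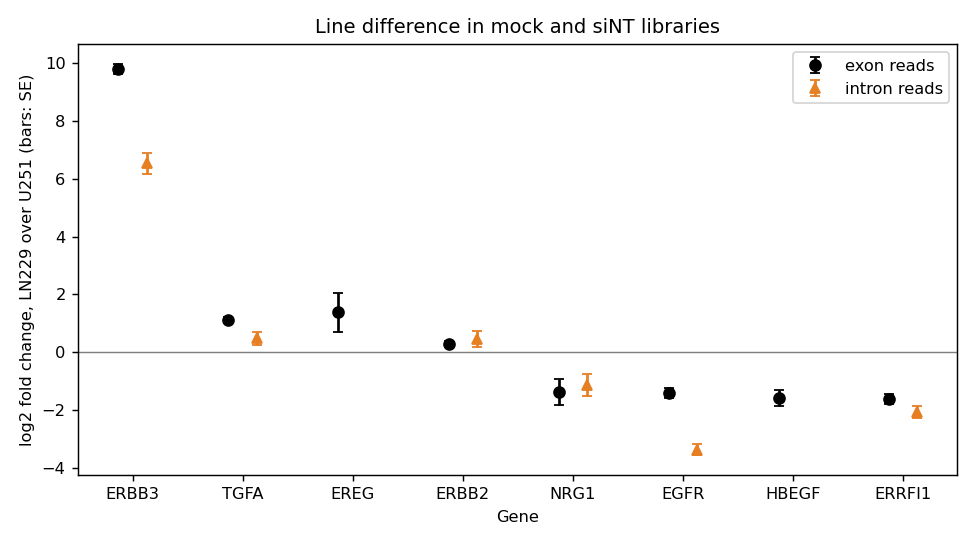
Log2 fold change of LN229 over U251 in mock and siNT libraries, with its SE as bars, from exon reads (circles) and intron reads (triangles, 6 genes with enough of them). ERBB3 stands at 9.79 and TGFA at 1.12 from exon reads, and EGFR moves from -1.41 in exon reads to -3.37 in intron reads.

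ERBB3 (ENSG00000065361, chr12:56079857-56103505, plus strand), the neuregulin receptor, was the member that separated the lines most. Its exon reads stood at 544 and 529 CPM in LN229 mock, 400 and 434 CPM in siNT and 453 and 369 CPM in siXRN2. In U251 the same 6 groups of reads amounted to 0.573 and 0.484 CPM in mock, 0.318 and 0.705 CPM in siNT and 0.594 and 0.844 CPM in siXRN2, which is 2 to 5 reads a library. The lowest LN229 library lay far above the highest U251 library. Summed over the 4 control libraries of each line, 12131 reads stood against 12, a ratio of 945 (95% exact interval 541 to 1829, counting error only), and the fitted log2 fold change was 9.79 (SE 0.19, adjusted p = 1.3e-12, edgeR). In LN229 62.9% of the ERBB3 exon reads were unique, and the gene overlaps AC034102.2, which had at most 5 reads in a library; with unique reads alone the log2 fold change was 9.48. With intron reads it was 6.54 (SE 0.36, adjusted p = 1.5e-13, edgeR), the lowest of its alternatives, from 0 or 1 intron read in each U251 library and 38 to 126 in each LN229 library.

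EGFR (ENSG00000146648, chr7:55019021-55211628, plus strand) was the higher receptor in U251. It stood at 108 and 103 CPM in LN229 mock, 54.9 and 118 CPM in siNT and 86.3 and 89.6 CPM in siXRN2. The U251 values were 231 and 293 CPM in mock, 258 and 233 CPM in siNT and 239 and 246 CPM in siXRN2. No LN229 library reached the lowest U251 library, and LN229 siNT replicate 1 was the lowest of all. In the controls LN229 over U251 stood at -1.41 on the log2 scale (SE 0.18, adjusted p = 1.7e-05, edgeR), a 2.65-fold lower level in LN229. Without LN229 siNT replicate 1 and U251 mock replicate 2 it was -1.11.

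Reads in EGFR introns separated the lines further than reads in its exons. Introns held 3.20% to 5.93% of the gene's reads in the 4 control libraries of LN229 and 14.1% to 18.2% in those of U251, a difference of 12.2 percentage points between means of 4.87% ± 1.21 and 17.1% ± 2.01 (SD, n = 4; exact permutation test, two-sided, p = 0.0286, the smallest that 4 against 4 libraries allow, and 0.143 adjusted over the 5 members compared). The comparison was chosen after the values were seen. EGFR introns gave 1.75 to 7.08 RPM (reads per 1000000 reads in genes) in the 6 LN229 libraries and 41.3 to 49.1 RPM in the 6 U251 libraries. The fit to intron reads gave a log2 fold change of -3.37 (SE 0.20, 10.3-fold, adjusted p = 1.7e-13, edgeR), in a comparison in which 50.5% of 12444 genes passed and 4 of the 6 members tested did. For the other 4 members compared, U251 minus LN229 ran from -2.9 (NRG1) to 2.31 percentage points (ERRFI1). The antisense gene EGFR-AS1 lies within EGFR, and since the library kit keeps no strand, reads of the 2 genes cannot be separated where they overlap: it was counted at 0 to 2 reads in LN229 and 26 to 48 in U251.

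**Figure D3:**
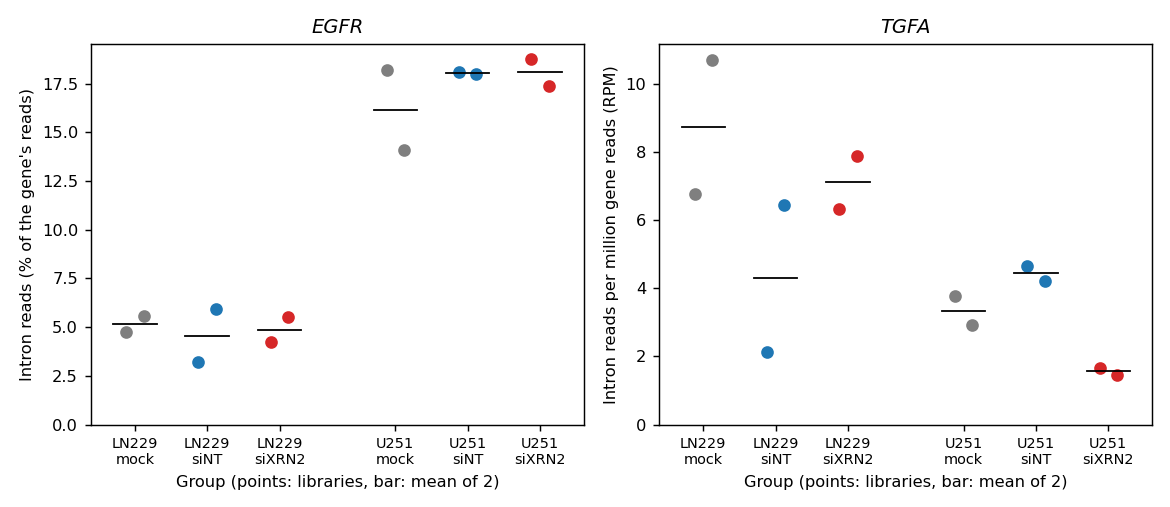
Left, intron reads as a percentage of all EGFR reads in each library (points, bar: mean of 2), 3.20% to 5.93% in LN229 and 14.1% to 18.8% in U251. Right, TGFA intron reads in RPM, where the 2 siXRN2 libraries of U251 lie at 1.67 and 1.46, below the 4 other U251 libraries at 2.91 to 4.66. The share of all genes so separated in introns was not counted.

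ERBB2 (ENSG00000141736, chr17:39687914-39730426, plus strand), the partner receptor, differed little. LN229 gave 92.8 and 93.5 CPM in mock, 91.2 and 94.8 CPM in siNT and 87.8 and 106 CPM in siXRN2. U251 gave 80.8 and 72.3 CPM in mock, 72.6 and 82.1 CPM in siNT and 84.4 and 92.9 CPM in siXRN2. The control libraries did not overlap, but 1 siXRN2 library of U251 lay within the range of LN229. In the controls the log2 fold change was 0.28 (SE 0.10, adjusted p = 0.0266, edgeR), and the call was lost in 8 of 23 alternatives, among them those without LN229 mock replicate 1 (adjusted p = 0.0653), LN229 mock replicate 2 (0.0713), U251 mock replicate 2 (0.0735) or U251 siNT replicate 1 (0.113). No member changed direction without TMM factors, a scaling that moves the line difference of every gene by 0.17, and ERBB2 then stood at 0.44. ERBB2 overlaps PGAP3 and MIEN1 on the other strand, and their reads could not be separated there.

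ERBB4 (ENSG00000178568, chr2:211375717-212538841, minus strand), the second neuregulin receptor, was close to the limit of detection. LN229 gave 6 and 12 reads in mock (0.96 and 1.52 CPM), 5 and 5 in siNT (1.01 and 0.842 CPM) and 12 and 8 in siXRN2 (1.63 and 1.40 CPM). U251 gave 1 read in siNT replicate 2 and 1 in siXRN2 replicate 1, and 0 in its other 4 libraries. Every LN229 library lay above every U251 library, and the control libraries held 28 reads against 1, a ratio of 26.2 with a wide exact 95% interval of 4.33 to 1070.

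Transforming growth factor alpha, TGFA (ENSG00000163235, chr2:70447280-70554193, minus strand), was the ligand with the most reads per kilobase in both lines. LN229 gave 184 and 155 CPM in mock, 167 and 161 CPM in siNT and 151 and 127 CPM in siXRN2. U251 gave 76.6 and 78.5 CPM in mock, 76.7 and 74.2 CPM in siNT and 51.1 and 53.2 CPM in siXRN2. The lines did not overlap in any treatment, and within each line the siXRN2 libraries were the lowest. In the controls the log2 fold change of LN229 over U251 was 1.12 (SE 0.10, adjusted p = 4.0e-07, edgeR), 2.18-fold, and in intron reads it was 0.48 (SE 0.23, adjusted p = 0.0905).

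Heparin-binding EGF-like growth factor, HBEGF (ENSG00000113070, chr5:140332843-140346631, minus strand), ran the other way. LN229 gave 6.88 and 4.06 CPM in mock, 5.65 and 5.73 CPM in siNT and 5.70 and 4.03 CPM in siXRN2. U251 gave 11.5 and 30.2 CPM in mock, 11.8 and 14.8 CPM in siNT and 11.7 and 9.96 CPM in siXRN2. Every U251 library was above every LN229 library, with U251 mock replicate 2 far above the rest. LN229 over U251 in the controls stood at -1.59 on the log2 scale (SE 0.29, adjusted p = 3.1e-04, edgeR). Without U251 mock replicate 2 it was -1.15.

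NRG1 (ENSG00000157168, chr8:31639386-32767959, plus strand), the neuregulin that binds ERBB3 and ERBB4, was also higher in U251. LN229 gave 27.4 and 18.5 CPM in mock, 17.2 and 26.4 CPM in siNT and 24.6 and 11.2 CPM in siXRN2. U251 gave 34.4 and 146 CPM in mock, 38.7 and 36.5 CPM in siNT and 31.2 and 27.5 CPM in siXRN2. The lines did not overlap within a treatment, and U251 mock replicate 2 held 4.24 times the level of replicate 1. LN229 over U251 in the controls stood at -1.38 on the log2 scale (SE 0.45, adjusted p = 0.0240, edgeR). It was -0.68 (adjusted p = 0.0249) without U251 mock replicate 2 and -0.57 (adjusted p = 0.0907) without LN229 siNT replicate 1 as well, and the call was also lost without LN229 mock replicate 2 (adjusted p = 0.0769), LN229 siNT replicate 1 (0.102), LN229 siNT replicate 2 (0.0602) or U251 siNT replicate 1 (0.0545).

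Epiregulin, EREG (ENSG00000124882, chr4:74365143-74388751, plus strand), and amphiregulin, AREG (ENSG00000109321, chr4:74445134-74455009, plus strand), are ligands encoded side by side on chromosome 4. EREG reads in LN229 numbered 3 and 2 in mock (0.48 and 0.254 CPM), 5 and 5 in siNT (1.01 and 0.842 CPM) and 19 and 13 in siXRN2 (2.58 and 2.28 CPM). U251 had 0 and 3 in mock, 1 and 1 in siNT and 1 and 2 in siXRN2, with a highest value of 0.484 CPM. The siXRN2 libraries of LN229 were the highest of the 12, and the control libraries of the lines overlapped. In the controls LN229 over U251 stood at 1.37 on the log2 scale (SE 0.68, adjusted p = 0.0920, edgeR), and it was 3.27 (adjusted p = 0.0119) without U251 mock replicate 2. AREG had no read in any of the 12 libraries, which allows at most 0.619 CPM in the shallowest of them.

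The bases before the start of EREG and AREG are printed because 1 of these neighbouring ligands had reads and the other had none, and those of HBEGF as a ligand read in all 12. They come from RefSeq (GRCh38.p14), which held entries for 8 of the 10 members, and stop before the first exon base of the gene in the files. The printed stretches hold 248 (EREG), 248 (AREG) and 222 (HBEGF) of the 250 bases before the RefSeq start. Distances are counted from that RefSeq start. Capitals mark 3 motifs, each searched on both strands of the 250 bases before the start. The TATA box, with the letters TATAAA, was found in 10.7% of all 35116 such windows. The cyclic AMP response element, with the letters TGACGTCA, was found in 1.65% of them. The GC box, with the letters GGGCGG, was found in 42.6% of them.
EREG, chr4:74364895-74365142, plus strand: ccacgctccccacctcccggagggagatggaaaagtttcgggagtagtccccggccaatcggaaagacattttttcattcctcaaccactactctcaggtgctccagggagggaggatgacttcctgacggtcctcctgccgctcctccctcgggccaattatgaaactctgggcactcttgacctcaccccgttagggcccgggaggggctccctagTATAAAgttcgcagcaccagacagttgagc
AREG, chr4:74444886-74445133, plus strand: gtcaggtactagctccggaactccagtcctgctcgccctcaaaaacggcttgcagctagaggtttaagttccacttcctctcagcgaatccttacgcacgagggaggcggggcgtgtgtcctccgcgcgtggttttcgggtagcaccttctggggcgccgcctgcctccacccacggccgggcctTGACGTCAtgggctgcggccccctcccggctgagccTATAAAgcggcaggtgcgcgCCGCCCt
HBEGF, chr5:140346632-140346853, minus strand: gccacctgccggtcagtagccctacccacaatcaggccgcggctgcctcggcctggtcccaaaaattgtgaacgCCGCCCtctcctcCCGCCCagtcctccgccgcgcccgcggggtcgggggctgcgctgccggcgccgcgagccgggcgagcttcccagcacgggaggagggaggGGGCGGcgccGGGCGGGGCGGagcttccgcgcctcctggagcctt
EREG held a TATA box 32 to 27 bases before its RefSeq start and neither of the other motifs. AREG held a TATA box 29 to 24 bases before its RefSeq start, a cyclic AMP response element 65 to 58 bases before it and 1 GC box. HBEGF held 5 GC boxes, the last 2 of which overlap, and neither of the other motifs. The printed stretches were 58.1%, 65.3% and 76.1% G or C for EREG, AREG and HBEGF. These are matches of letters and were not tested for use.

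ERRFI1 (ENSG00000116285, chr1:8004404-8026308, minus strand), the inhibitor, was higher in U251. LN229 gave 67.8 and 50.4 CPM in mock, 57.7 and 52.2 CPM in siNT and 45.9 and 31.7 CPM in siXRN2. U251 gave 149 and 258 CPM in mock, 149 and 147 CPM in siNT and 127 and 116 CPM in siXRN2. The lines were wholly apart, U251 mock replicate 2 was the highest library and in both lines the siXRN2 libraries were the lowest. In the controls LN229 over U251 stood at -1.61 on the log2 scale (SE 0.17, adjusted p = 2.6e-06, edgeR), and in intron reads it was -2.07 (SE 0.20). Without U251 mock replicate 2 the exon value was -1.39.

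**Figure D4:**
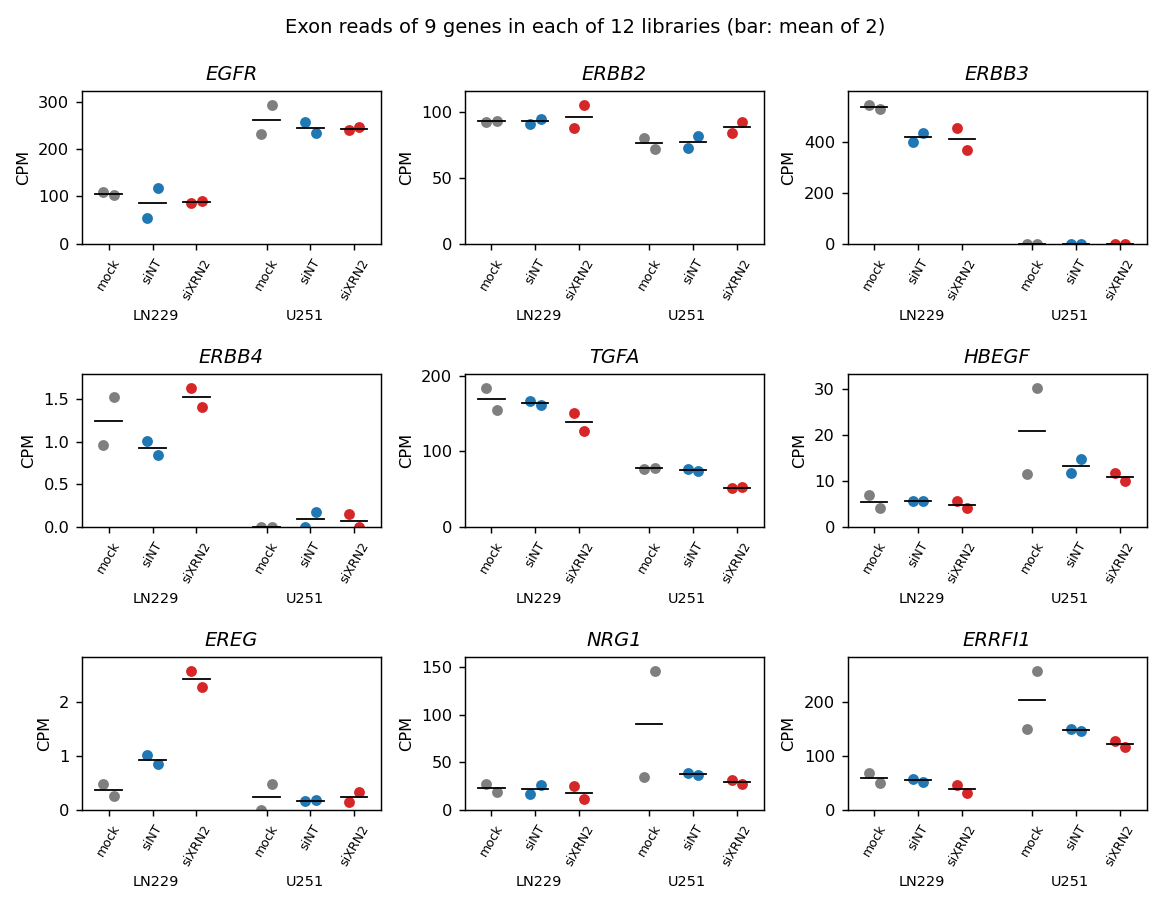
Exon reads in CPM of 9 genes in each of the 12 libraries (points, linear axis from 0) by line and treatment, with the mean of 2 as a bar. NRG1, HBEGF and ERRFI1 share a high point in U251 mock replicate 2 (146, 30.2 and 258 CPM), TGFA is lowest in the siXRN2 libraries of both lines, and EREG is highest in those of LN229.

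Among the other genes of the pathway, the line difference was largest in the genes that ERK signalling is known to induce. Of 19 tested, 16 were higher in LN229 and 2 were lower (adjusted p under 0.05, edgeR). That is 94.7% called, beside 67% of all genes. The median log2 fold change was 2.32 beside 0.03 over all genes. ETV1, an ETS transcription factor, stood at 121 to 171 CPM in the control libraries of LN229 and 1.34 to 2.42 CPM in those of U251, a log2 fold change of 6.32 (SE 0.20). The ERK phosphatases DUSP4 (6.09, SE 0.21) and DUSP6 (4.72, SE 0.18) and the feedback inhibitor SPRY2 (3.73, SE 0.15) were higher too. EPHA2, an ephrin receptor, at -0.57 and PLAUR, the urokinase receptor, at -0.49 were the 2 lower ones and are named after their values were seen. The split was 16 to 2 under DESeq2 size factors and without LN229 siNT replicate 1 and U251 mock replicate 2, and 16 to 1 without TMM factors.

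Of the 6 further ERBB ligands, 4 could be tested, and 75% of these were called beside 67% of all genes. EGF (-2.01, SE 0.19) and betacellulin, BTC (-2.64, SE 0.26), were lower in LN229, and NRG4, a neuregulin, was higher (2.30, SE 0.54). EGF stood at 3.03 to 5.08 CPM in the control libraries of LN229 and 14.4 to 17.8 CPM in those of U251. BTC ran from 1.01 to 1.60 CPM and from 6.37 to 8.72 CPM, and NRG4 from 0.96 to 5.04 CPM and from 0.323 to 0.528 CPM, a call that was lost with mock alone as the control (adjusted p = 0.0842, edgeR).

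The counts that follow stand beside 67% of all genes called in this comparison, 4970 higher and 4563 lower, and a median of 0.03. Of 11 genes of ligand shedding (81.8% called), 2 were higher and 7 lower in LN229 (median -0.38). TIMP3, an inhibitor of the sheddases, was higher by 5.22 on the log2 scale (SE 0.33), with 792 to 971 CPM against 14.1 to 53.3 CPM. FRMD8, which stabilizes the iRhom and ADAM17 complex, was higher by 1.47 (SE 0.12), and the metalloproteases ADAM19 (-3.71, SE 0.18) and ADAM9 (-1.17, SE 0.12) were lower. Of 14 genes listed under receptor restraint (78.6% called), 3 were higher and 8 lower (median -0.66). Among the lower ones were SOCS5 (-2.42, SE 0.11), TNK2 (-1.10, SE 0.11), the phosphatase PTPRJ (-1.12, SE 0.12) and LRIG3 (-1.07, SE 0.13). What each listed gene does to the receptors in these lines was not tested.

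The lists of endocytosis and of adaptors had shares called near that of all genes, 66.7% and 63.3% beside 67%. Of 15 genes of endocytosis and sorting, 3 were higher and 7 lower (median -0.16), with the adaptor subunit AP2M1 at -1.31 (SE 0.11), the dynamin DNM2 at -0.77 (SE 0.10), USP8, a deubiquitinase, at -0.65 (SE 0.11) and EPS15L1 at -0.64 (SE 0.10). Of 30 adaptors and effectors, 7 were higher and 12 lower (median -0.17): the ERK kinase MAP2K1 (-2.16, SE 0.12), STAT3 (-1.10, SE 0.12) and STAT5B (-1.08, SE 0.10) were among the lower ones. Without TMM factors the splits were 3 to 5 for shedding, 3 to 8 for restraint, 5 to 7 for endocytosis and 11 to 10 for adaptors and effectors. The markers that differ between these lines, GFAP and SOX10 among them, move with all of these lists, and their part was not tested.

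In LN229, none of the 8 members passed the threshold when siXRN2 was compared with siNT, where 3.16% of all genes did (edgeR). Before adjustment, 3165 genes and 1 member, EREG, were under 0.05. DESeq2 called 0 members and gave EREG no adjusted p. Against mock, 0 of 8 passed where 1.29% of all genes did (2355 genes and 3 members at an unadjusted p under 0.05, and 0 members by DESeq2, which gave EREG no adjusted p). Both comparisons use the same siXRN2 libraries. The median log2 fold change of the members was -0.11 against siNT and -0.28 against mock, beside 0.00 over all genes in each. EREG was the member with the highest fold change in both. It passed the filter on low counts only through these siXRN2 libraries, in which it was high. Its rank and its unadjusted p are therefore no evidence of a response.

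EREG in LN229, given by library above, numbered 32 reads in the 2 siXRN2 libraries and 15 in the 4 control libraries. The ratio of these sums per read sequenced was 4.08 (exact 95% interval 2.15 to 8.12, counting error only), and it was 2.67 (1.28 to 6.08) against the 10 reads of the siNT libraries alone. On the log2 scale siXRN2 lay at 1.39 (SE 0.58, adjusted p = 0.181, edgeR) against siNT and 2.71 (SE 0.65, adjusted p = 0.0568) against mock. Against mock the adjusted p ran from 0.0124 to 0.404 over the 20 alternatives with one and was under 0.05 in 7, among them those without LN229 siNT replicate 1 (0.0413) or 2 (0.0429) and without U251 mock replicate 1 (0.0334) or 2 (0.0332). Against mock and siNT together the log2 fold change was 2.05 with an adjusted p of 0.0351. EREG entered the test only through the siXRN2 libraries, in which it was high, so these p-values cannot be taken at face value. In siNT it lay 1.32 above mock on the log2 scale (SE 0.77, adjusted p = 0.802, edgeR).

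The receptors of LN229 had log2 fold changes near 0 against siNT, each smaller than its SE: 0.02 (SE 0.26) for EGFR, 0.05 (SE 0.14) for ERBB2 and -0.02 (SE 0.15) for ERBB3. The EGFR value rests on 2 siNT libraries at 54.9 and 118 CPM: without siNT replicate 2 it was 0.68 (adjusted p = 0.0108, edgeR), and without siNT replicate 1 it was -0.38. In LN229 siNT replicate 1, 15.4% of EGFR exon reads crossed an exon junction against 29% to 31% in the other LN229 libraries, and 42.6% of ERBB3 exon reads were unique against 64.9% to 66.3%. Their part in the result was not tested. Against mock, ERBB3 lay at -0.38 (SE 0.15, adjusted p = 0.205, edgeR), and siNT lay at -0.36 against mock (SE 0.15, adjusted p = 0.802).

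TGFA and ERRFI1 were the 2 members of LN229 whose siXRN2 libraries both lay below all 4 control libraries, and 16.9% of all genes did so. EREG was the 1 member above them, as were 16% of all genes, but it passed the filter on low counts only through these siXRN2 libraries. Its place above the controls therefore follows from the filter and is no further evidence. TGFA averaged 139 ± 16.4 CPM in siXRN2 and 164 ± 4.54 CPM in siNT (SD, n = 2), which is -0.24 on the log2 scale (SE 0.14, adjusted p = 0.323, edgeR). ERRFI1 averaged 38.8 ± 9.99 CPM and 55.0 ± 3.88 CPM, which is -0.49 (SE 0.25, adjusted p = 0.262), and against mock it was -0.60 (SE 0.25, adjusted p = 0.245). NRG1 (-0.27, SE 0.68) and HBEGF (-0.21, SE 0.46) had log2 fold changes smaller than their SE. For NRG1, siXRN2 replicate 2 had 0.457 times the level of replicate 1.

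ERBB4, which was not tested, had 20 reads in the LN229 siXRN2 libraries and 28 in the 4 control libraries, a ratio of 1.37 with an exact interval of 0.730 to 2.52. A difference of that size was not detectable at this depth.

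In U251, none of the 8 members passed against siNT, where 0.00703% of all genes, 1 of 14232, did (edgeR; 553 genes and 1 member, TGFA, at an unadjusted p under 0.05, and 0 members by DESeq2). Against mock 0 of 8 passed, where 0.0492% of all genes did (1526 genes and 4 members at an unadjusted p under 0.05, and 0 members by DESeq2). The median over the members was -0.15 against siNT and -0.35 against mock. So few genes passed in U251 that the threshold separates little here.

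TGFA was lower in both siXRN2 libraries of U251 than in all 4 controls, as were 10.6% of all genes. It averaged 52.2 ± 1.46 CPM in siXRN2, 75.5 ± 1.83 CPM in siNT and 77.5 ± 1.28 CPM in mock (SD, n = 2). Each SD rests on 2 libraries and is a poor measure of spread. On the log2 scale siXRN2 lay at -0.53 against siNT (SE 0.14, unadjusted p = 0.00254, adjusted p = 1, edgeR), 1.45-fold lower. Against mock it lay at -0.57 (SE 0.14, unadjusted p = 0.00151, adjusted p = 0.280, edgeR), 1.49-fold lower. No alternative brought the adjusted p under 0.05, and the lowest were 0.124 and 0.0639. TGFA introns gave 3.78 and 2.91 RPM in mock, 4.66 and 4.22 RPM in siNT and 1.67 and 1.46 RPM in siXRN2. In introns too the siXRN2 libraries were the lowest, but the share of all genes so separated in introns was not counted. The intron log2 fold change was -1.50 against siNT (SE 0.39, adjusted p = 0.535, edgeR) and -1.10 against mock (SE 0.41, adjusted p = 0.436). These intron values rest on 10 to 34 reads a library, and in LN229 the intron reads of the siXRN2 libraries, at 6.33 and 7.88 RPM, lay within the control range of 2.14 to 10.7.

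Of the 8 members, NRG1, TGFA and ERRFI1 had both U251 siXRN2 libraries below all 4 controls, as did 10.6% of all genes, and ERBB2 had both above, as did 13.8%. ERBB2 averaged 88.6 ± 5.98 CPM in siXRN2 and 77.3 ± 6.71 CPM in siNT, which is 0.20 on the log2 scale (SE 0.14, adjusted p = 1, edgeR). ERRFI1 averaged 122 ± 7.79 CPM and 148 ± 1.84 CPM, which is -0.28 (SE 0.24, adjusted p = 1). EGFR lay at -0.02 (SE 0.25), HBEGF at -0.29 (SE 0.38) and NRG1 at -0.35 (SE 0.63).

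Against mock, NRG1 (-1.62, SE 0.61, adjusted p = 0.418), HBEGF (-0.95, SE 0.37, adjusted p = 0.404) and ERRFI1 (-0.74, SE 0.24, adjusted p = 0.368, edgeR) had larger fold changes than against siNT. All of them rest on U251 mock replicate 2: without it they were -0.23, -0.08 and -0.29, and without mock replicate 1 they were -2.31, -1.47 and -1.08 with adjusted p-values of 0.00125, 0.00873 and 0.0106. That library had 4.24 times the NRG1, 2.63 times the HBEGF and 1.73 times the ERRFI1 of replicate 1, but 1.27 times the EGFR and 1.02 times the TGFA.

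**Figure D5:**
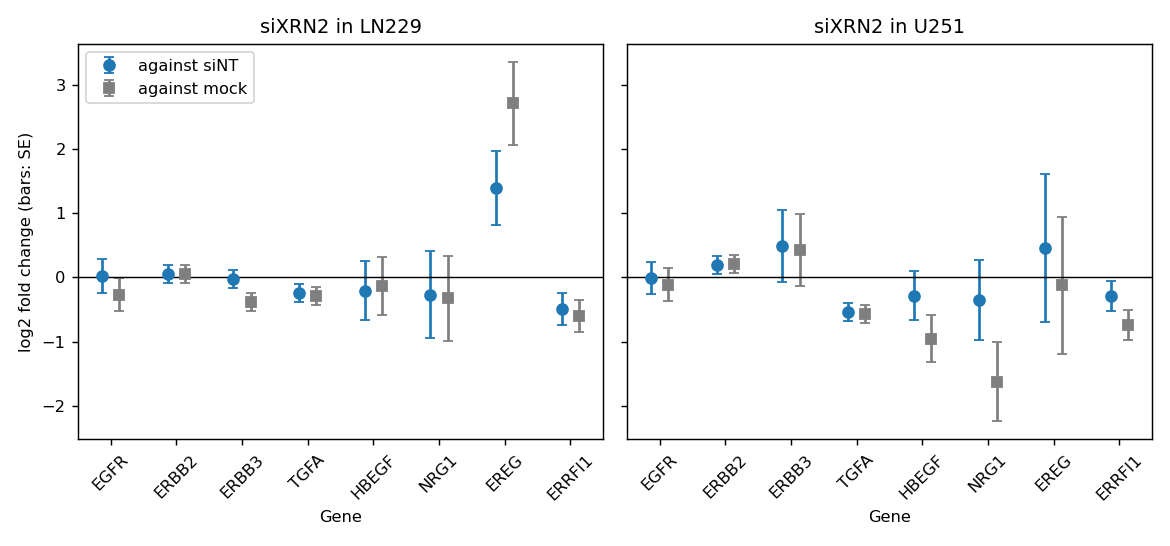
Log2 fold change of siXRN2 against siNT (circles) and against mock (squares) for 8 members in LN229 (left) and U251 (right), with the SE as bars. EREG in LN229 stands at 1.39 and 2.71, TGFA lies at or below -0.24 in all 4 comparisons, and no value passed the adjusted threshold.

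With the control siRNA alone no member passed. In siNT against mock 0 of 8 passed in either line, as did 0% of all genes (edgeR; 647 genes in LN229 and 682 in U251 were under 0.05 before adjustment, and DESeq2 called 1 gene and 0 genes). The difference between the lines in the response to siXRN2 passed for 0 members and for 0% of all genes (945 genes at an unadjusted p under 0.05, and 15 genes by DESeq2). For TGFA that difference was 0.29 (SE 0.20, adjusted p = 0.774, edgeR) and for EREG 0.93 (SE 1.48, adjusted p = 0.906), so a line-specific response was not shown for either.

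Over the 12 libraries pooled, several members varied together, and no correlation was computed in either line alone. After each line's mean was subtracted, log2 CPM of NRG1 correlated with HBEGF at r = 0.93, with ERRFI1 at 0.88, and HBEGF with ERRFI1 at 0.86 (12 libraries, a description with no test). TGFA correlated with ERRFI1 at r = 0.77. ERBB2 ran against TGFA (r = -0.75), ERRFI1 (-0.73), NRG1 (-0.70) and HBEGF (-0.62). U251 mock replicate 2, high in NRG1, HBEGF and ERRFI1, is 1 of the 12 points, and all points of a library share its depth. By the same measure the genes most like EGFR were GNL3L (r = 0.98), AKAP13 (0.97) and KMT2C (0.96), and those most like TGFA were NT5E (0.91), RFTN1 (0.90) and RNF115 (0.90). LN229 siNT replicate 1, in which EGFR was lowest, is another of the 12.

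After siXRN2 in LN229, 7 of the 93 pathway genes tested passed against siNT (adjusted p under 0.05, edgeR), which is 7.53% beside 3.16% of all genes. Of 11 shedding genes, RHBDF2, an iRhom that guides ADAM17, rose by 1.00 on the log2 scale (SE 0.23) and the metalloprotease ADAM15 fell by 0.76 (SE 0.15). Of 14 genes of receptor restraint, the ubiquitin ligase CBLB rose by 1.19 (SE 0.27) and its partner SH3KBP1 fell by 0.70 (SE 0.15). MAP2K1 was the 1 of 30 adaptors and effectors, and fell by 0.77 (SE 0.17) from 42.3 ± 0.461 to 24.7 ± 4.42 CPM (SD, n = 2). Of the 15 endocytosis genes and the 4 further ligands, 0 passed.

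Of the 19 ERK-induced genes, 0 rose and 2 fell in that comparison. PLAUR fell by 1.17 (SE 0.24), from 37.4 ± 6.97 to 16.4 ± 5.37 CPM, and the ETS factor ETV4 fell by 0.91 (SE 0.22), from 27.6 ± 0.391 to 14.6 ± 2.56 CPM. The list's median was -0.48, beside 0.00 over all genes, and 17 of 19 values were below 0. Without LN229 siNT replicate 1 the median was -0.29, with 0 called. Of the 2, ETV4 lost its call by DESeq2 as well. Against mock, ADAM15 (-0.67, SE 0.15), STAT5B (-0.76, SE 0.15) and ETV1 (-0.98, SE 0.18) were the pathway genes that passed, 3.23% of 93 beside 1.29% of all genes. Each of these calls was lost in 5 to 12 of the 22 or 23 alternatives, with adjusted p-values of up to 0.518 (ADAM15 against mock), and each kept its direction. All of them were lost in the fit of LN229 alone and without LN229 siXRN2 replicate 2, U251 siXRN2 replicate 1 or U251 siXRN2 replicate 2. Those against siNT were all lost without LN229 siNT replicate 1, and those against mock without LN229 mock replicate 1 or 2.

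In U251, 0 of the pathway genes passed against siNT or mock. The median of the 19 ERK-induced genes was -0.26 against siNT and -0.92 against mock, with 15 and 18 values below 0. Over all genes it was 0.00 and 0.01. The control siRNA alone, siNT against mock, gave a list median of -0.31 with 15 values below 0, beside 0.01 over all genes. The drop was therefore not particular to siXRN2. ETV1, ETV4 and DUSP4 averaged only 1.77, 1.25 and 1.92 CPM in U251 siNT. The median of siXRN2 against mock was -0.33 without U251 mock replicate 2 and -1.16 without mock replicate 1.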

How the data were processed

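RNA of 2 glioblastoma lines was sequenced on a MiSeq from Illumina TruSeq RNA LT v2 libraries, per the labels' protocols, 12 libraries in 6 groups taken from the titles. Such libraries hold polyadenylated RNA and carry no strand information, as is known of the kit. For each library the authors deposited whole-number read counts per gene, per the file headers: exon reads (total and unique), intron reads and exon-exon reads, beside gene position and exon length. GRCh37 and hg19 stand in the submitters' processing notes, yet 96.8% of 57836 shared gene identifiers lie at the same position in GENCODE 29, so coordinates are those of GRCh38 (ERBB3 alone among the members differed in extent). Aligner and counter: not given in the sources used here.

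Total exon counts were filtered with filterByExpr (minimum count 10, minimum total 15, which asks for 1.61 CPM in 2 libraries; 14232 genes left), scaled by TMM and fitted with 1 mean per group over all 12 libraries (6 residual degrees of freedom) in edgeR 4.0.16 under R 4.3.3, with robust quasi-likelihood F-tests and Benjamini-Hochberg adjustment at 0.05. CPM is TMM-scaled. The fit was tested on simulated data. Intervals of summed reads are exact at 95% and cover counting error only. The comparisons were the line difference in mock and siNT libraries, siXRN2 against siNT and mock, siNT against mock, and the difference between lines. Alternatives were DESeq2 1.42.0, other scalings, filters, read types, control groups, the line alone, a replicate block and each library left out. Replicate numbers did not pair the libraries (correlations -0.0381 to 0.0657). Chi-square per gene between replicates was 1.71 to 25.4, above sampling noise in every pair. All 10 members are named, and of the pathway lists at most 4 called genes per comparison by smallest p; 1 gene this rule names and some markers are not reported here. Members and lists were chosen with earlier results of these data known.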

Additional observations from a re-analysis of the deposited data

How the results depend on the processing

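Over 45 member results, 943 of 1005 alternatives kept the direction and the side of the threshold, 20 crossed into a call, 15 lost one and 27 changed sign, the last all for values that were not called. These results cover all 8 tested members in the line difference and in siXRN2 against siNT and mock. For siNT against mock they cover only ERBB3 and EREG in LN229 and TGFA in U251, and for the difference between lines only TGFA and EREG. In the line difference, 4 of 6 members tested passed with intron reads, 8 of 9 with total gene reads, where ERBB4 entered the test and passed, and 5 to 7 of 8 with each library left out. Against siNT in LN229, 1 passed with mock plus siNT as the control and 0 to 1 with each library left out. Against mock in LN229, 2 passed without the filter, 1 with unique reads, 2 without both LN229 siNT replicate 1 and U251 mock replicate 2, and 0 to 1 with each library left out. Against mock in U251, 3 passed without the filter and 0 to 3 with each library left out. In siNT against mock, 0 to 1 passed in LN229 with each library left out, and in U251 1 without the filter and 0 to 2 with each library left out. The signs that changed, against siNT in LN229, were those of ERBB3 without TMM factors (0.069) and with unique reads (0.21), EGFR and ERBB2 with total gene reads (-0.025 and -0.014), and EGFR with mock plus siNT as the control (-0.12) and without both libraries (-0.39). Against mock in U251 they were ERBB3 with unique reads (-0.14) and, without both libraries, EGFR (0.064) and EREG (3.69). With each library left out, values against siNT in LN229 ran from -0.38 to 0.68 for EGFR, -0.083 to 0.18 for ERBB2, -0.18 to 0.12 for ERBB3, -0.97 to 0.16 for NRG1 and -0.49 to 0.0025 for HBEGF. In U251 they ran from -0.086 to 0.060 for EGFR and -0.15 to 0.93 for EREG. Against mock they ran from -0.086 to 0.18 for ERBB2, -1.02 to 0.11 for NRG1 and -0.48 to 0.28 for HBEGF in LN229, and from -0.27 to 0.074 for EGFR and -0.97 to 3.67 for EREG in U251. The causes were not tested. With a replicate block in each line, ERBB2 (0.25, adjusted p = 0.141, edgeR) and NRG1 (-0.82, adjusted p = 0.324) lost and EREG (2.44, adjusted p = 0.0428) gained a call in the line difference, and no other member's call changed, but the libraries share only a number. Counts over all genes moved far more: 450 against siNT in LN229 ran from 1 (LN229 alone) to 3308 (without siNT replicate 2), 183 against mock from 1 to 1593, 1 against siNT in U251 from 1 to 69, 7 against mock from 1 to 768, 0 in siNT against mock up to 1939 in LN229 and 475 in U251, 0 in the difference between lines up to 1140, and 9533 in the line difference from 6278 (intron reads) to 10604. Depth limits AREG, ERBB4 and EREG, which had 0, 0 to 12 and 0 to 19 reads a library. A group left with 1 library was assumed to vary like the other groups.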
